A study of Cricetulus griseus with 10 samples.

Results

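The genes described here encode ligands and receptors of the ErbB family: the neuregulins Nrg4 and Nrg1, the EGF-like ligands Hbegf, Areg, Ereg and Tgfa, and the receptors Egfr, Erbb2 and Erbb3. The 9 genes were picked by name, and each was found once among the 25156 features of the deposited table, Egfr by its symbol and the other 8 by their Chinese hamster gene number (100757283 for Nrg4). The cells were CHO-K1, an established wild-type line of Chinese hamster (Cricetulus griseus) ovary origin and the parent of many production lines. RNA was sequenced while the line was adapted to SFM4CHO, a serum-free medium, for growth in suspension. Passages 0, 2, 4, 6 and 10 (P0 to P10) gave 2 libraries each. All groups shared the same line, genotype and medium in the labels, which say neither how cells grew at P0 nor what separates the duplicates. The p-values therefore measure the spread between these libraries alone, and that spread may be technical.

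ErbB receptors are tyrosine kinases that pair when a ligand binds, and the pair signals through the Ras to ERK and the PI3K to Akt routes. Most of the ligands are made as membrane-bound precursors that ADAM proteases cut free. Egfr binds Areg, Tgfa, Ereg and Hbegf, the last 2 of which also bind Erbb4, while Nrg1 binds Erbb3 and Erbb4 and Nrg4 binds Erbb4. Erbb2 has no known ligand and serves as a partner, and Erbb3 has a weak kinase and signals through its partners. CHO cells have long been used as a host with little or no EGFR of their own.

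All levels below are normalised reads, the authors' read counts divided by a size factor for each library. They are not divided by gene length, so levels are compared between libraries and not between genes. Reads assigned to genes ranged from 8394219 to 16599495 per library. The libraries of P6 and P10 lay further from their duplicates (Pearson's r over genes on the log2 scale, 0.956 and 0.930) than those of P0, P2 and P4 (0.988 to 0.992). In 3 libraries, both of P6 and P10 replicate 1, the feature Dym held 1.15 to 4.32% of normalised reads, against 8.53 to 13.5% in the other 7. Differences are between mean log2(normalised reads + 1) values with a standard error (SE), and adjusted p-values come from limma over the 13521 features whose mean reached 10. Of the 9 genes, 8 passed that minimum, and Tgfa did not. In bulk RNA, fewer cells that make a transcript and less of it per cell cannot be told apart.

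Among the ligands, the neuregulin Nrg4 was higher in every later passage than at P0. It stood at 37.5 and 25.9 normalised reads in the P0 pair, 231 and 187 in the P2 pair, 286 and 258 in the P4 pair, 603 and 821 in the P6 pair, and 908 and 401 in the P10 pair. P0, P2 and P4 followed in ascending order without overlap, below P6 and P10, which overlapped each other. From a P0 mean of 31.7 ± 8.19, Nrg4 rose to 712 ± 155 at P6 and 655 ± 358 at P10 (SD, n = 2), ratios of 22.5 and 20.7.

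The log2 difference of Nrg4 from P0 was 2.70 at P2 (SE 0.37, adjusted p = 0.00643), 3.08 at P4 (adjusted p = 0.00253), 4.45 at P6 (adjusted p = 0.000363) and 4.23 at P10 (adjusted p = 0.000494), all by limma. The calls at P4, P6 and P10 held whichever of the 10 libraries was omitted. The call at P2 was lost without P0 replicate 2, P2 replicate 1 or P2 replicate 2 (highest adjusted p = 0.0834). Nrg4 also rose between the early passages P2 and P4 and the late passages P6 and P10, by 1.45 (SE 0.26, adjusted p = 0.0230). That second rise was lost on omitting any P0, P2 or P4 library or without P6 replicate 2 (highest adjusted p = 0.125), and with the spread of the compared passages alone (adjusted p = 0.0550). Nrg4 was highest in the 3 libraries with little Dym (603 to 908), and P10 replicate 2, at 401, lay above every P2 and P4 library; the part of the Dym shift in the result was not tested.

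In the CriGri-PICRH-1.0 annotation Nrg4 overlaps Fbxo22, a ubiquitin ligase subunit, and reads of overlapping genes can be split between them in a way that the sources used here do not state. Fbxo22 averaged 372 ± 11.4 normalised reads in the P0 pair, 405 ± 56.0 in the P2 pair, 358 ± 35.9 in the P4 pair, 221 ± 68.8 in the P6 pair and 299 ± 106 in the P10 pair (SD, n = 2). It was thus above P0 in the P2 mean and below P0 in the other 3 later means, but passages next to each other in order of means overlapped. Fbxo22 held 172 to 269 normalised reads in the 3 libraries with little Dym and 332 to 445 in the other 7. The part of shared reads in the level of Nrg4 was not tested, nor was that of the Dym shift in Fbxo22.

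Nrg1, the founding neuregulin and a ligand of Erbb3, stayed near the limit of detection. Its values were 6.97 and 14.4 in the P0 pair, 5.21 and 6.71 in the P2 pair, 7.92 and 14.0 in the P4 pair, 14.1 and 14.6 in the P6 pair, and 21.9 and 14.0 in the P10 pair, which rest on 5 to 26 reads per library. P0 lay above P2 and overlapped P4, P6 and P10, and none of the 4 comparisons with P0 passed (limma adjusted p = 0.327 to 0.959). Late against early passages gave a log2 difference of 0.92 (SE 0.34, adjusted p = 0.106), which passed only without P10 replicate 2 (adjusted p = 0.0429) among the fits run.

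**Figure D1:**
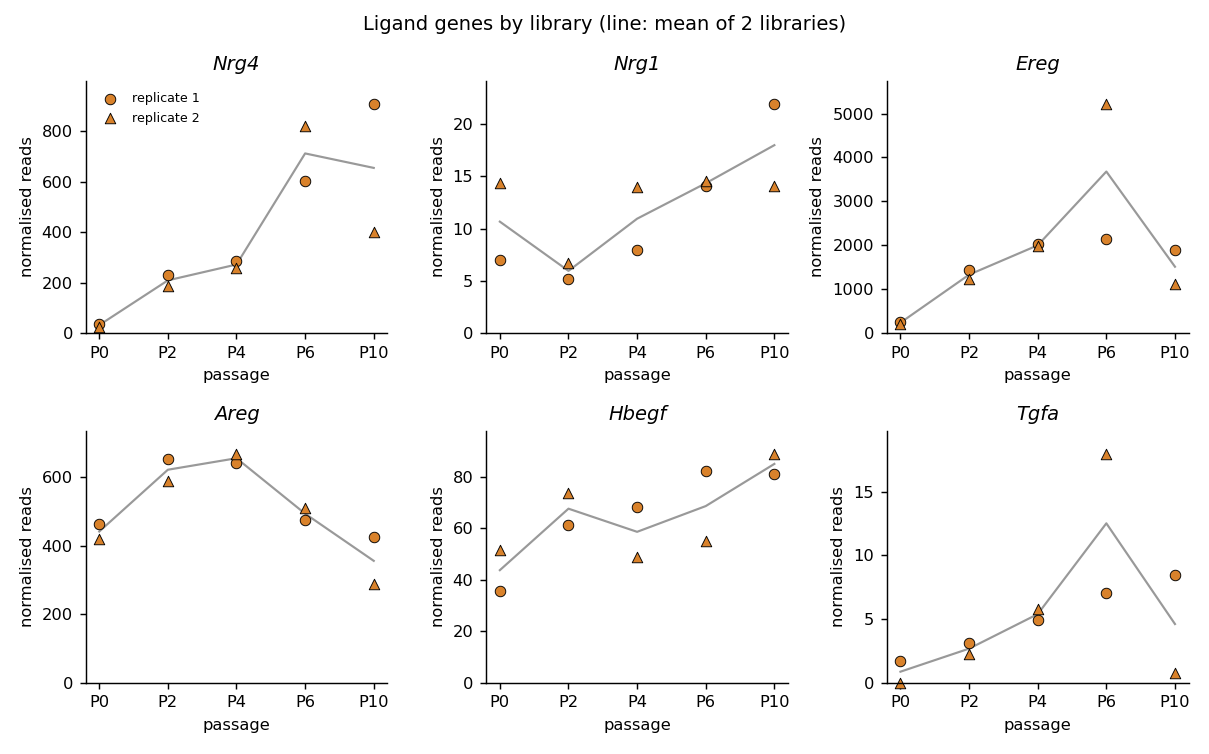
Normalised reads (vertical axes, from 0, a separate scale for each gene) of 6 ligand genes in the 10 libraries by passage (horizontal axes), with circles and triangles for replicates 1 and 2 and a line through the means of 2 libraries. Nrg4 lies at 25.9 and 37.5 at P0 and at 401 and 908 at P10, Ereg is highest in P6 replicate 2 (5219), and Areg is lowest in P10 replicate 2 (287).

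Ereg, or epiregulin, a broad ligand that acts through both Egfr and Erbb4, rose early. Its values were 260 and 214 in the P0 pair, 1439 and 1221 in the P2 pair, 2021 and 1979 in the P4 pair, 2140 and 5219 in the P6 pair, and 1895 and 1128 in the P10 pair. Every later library lay above both P0 libraries, P6 lay above P4 without overlap, and P10 overlapped P2. Its P0 mean of 237 ± 32.1 compared with 1999.8 ± 29.3 at P4 (SD, n = 2), a ratio of 8.44, and the P10 mean was 6.38 times that of P0.

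The log2 difference of Ereg from P0 was 2.49 at P2 (SE 0.39, adjusted p = 0.0116), 3.08 at P4 (adjusted p = 0.00311), 3.82 at P6 (adjusted p = 0.000850) and 2.63 at P10 (adjusted p = 0.00433) by limma. At P4, P6 and P10 the calls held whichever library was omitted, whereas at P2 the call was lost on omitting any library of P0 or P2 (highest adjusted p = 0.125). At P10 it was also lost with the spread taken from P0 and P10 alone (adjusted p = 0.0536). Late and early passages were not told apart (log2 difference 0.44, SE 0.28, adjusted p = 0.278). The highest Ereg value, in P6 replicate 2, came from the library with the lowest share of Dym, and without it the P6 difference was 3.18.

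Areg, or amphiregulin, a ligand of Egfr alone, had a shallow and passing maximum. Its values were 463 and 418 in the P0 pair, 653 and 589 in the P2 pair, 641 and 668 in the P4 pair, 476 and 510 in the P6 pair, and 424 and 287 in the P10 pair. All 4 P2 and P4 libraries lay above the other 6, and P10 overlapped P0. None of the comparisons with P0 passed by limma, with log2 differences of 0.49 at P2 (SE 0.21, adjusted p = 0.241), 0.57 at P4 (adjusted p = 0.125), 0.16 at P6 (adjusted p = 0.579) and -0.34 at P10 (adjusted p = 0.299). The P2 and P4 differences passed without P10 replicate 2 (adjusted p = 0.0497 and 0.0201), and that at P4 also without P10 replicate 1 (adjusted p = 0.0206). Both passed without P6 replicate 2 and P10 replicate 1 together (adjusted p = 0.00486 and 0.00143) and with the spread of the compared passages alone (adjusted p = 0.0135 and 0.00210). P10 against P0 passed without P10 replicate 1, at -0.61 (adjusted p = 0.0347).

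Late against early passages, Areg fell by 0.62 on the log2 scale (SE 0.15, limma adjusted p = 0.0401). That call was lost on omitting any library of P0, P2, P4 or P6 (highest adjusted p = 0.158), and with no filter (adjusted p = 0.0540) or the spread of these 4 passages alone (adjusted p = 0.0817). It held without P10 replicate 1 or 2.

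Ereg and Areg lie side by side in the CriGri-PICRH-1.0 annotation, next to Epgn, the gene of the EGF-like ligand epigen. At P10 Ereg stood at 6.38 times its P0 mean and Areg at 0.806 times, and Epgn had 12 reads over all 10 libraries. Epgn had 4 reads in the P0 pair and 1 in the P10 pair, a depth-scaled ratio of 0.187 with a 95% exact binomial interval of 0.00379 to 1.89 that covers counting error only and takes in the ratio of Areg.

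Hbegf, the heparin-binding EGF-like ligand, did not pass the test in any comparison. It had 35.7 and 51.7 normalised reads in the P0 pair, 61.4 and 73.8 in the P2 pair, 68.3 and 49.0 in the P4 pair, 82.2 and 55.0 in the P6 pair, and 81.0 and 89.0 in the P10 pair. Both libraries of P2, P6 and P10 lay above both of P0, and P4 overlapped P0. The log2 difference at P10 was 0.96 (SE 0.32, limma adjusted p = 0.0697), and those at P2, P4 and P6 were 0.63, 0.42 and 0.63 (adjusted p = 0.343, 0.479 and 0.176). Without both P6 replicate 2 and P10 replicate 1, the P6 and P10 differences passed (adjusted p = 0.0288 and 0.0179). In the annotation Hbegf overlaps Slc4a9, which had at most 2 reads in any library, and 2 genes named only by number, and Nrg1 overlaps 1 such gene.

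Tgfa, the classic autocrine partner of Egfr, was found only in traces. It had 2 and 0 reads in the P0 pair, 3 and 2 in the P2 pair, 5 and 5 in the P4 pair, 9 and 16 in the P6 pair, and 10 and 1 in the P10 pair. The ratio of pooled reads to P0, scaled for depth, was 10.6 at P6, with a 95% exact binomial interval of 2.65 to 92.6. At P10 the ratio was 4.11, with an interval of 0.897 to 38.2, and both intervals cover counting error only. Tgfa held 7.04 to 18.0 normalised reads in the 3 libraries with little Dym and 0.0 to 5.83 in the other 7. The part of that shift was not tested. With no filter on low values, the P6 difference had a limma adjusted p of 0.0520, and those of the other comparisons were 0.255 or above.

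Of the receptors, Erbb2, the orphan partner of the family, was lower at P6 and P10 than at P0. Its values were 430 and 303 in the P0 pair, 224 and 296 in the P2 pair, 200 and 202 in the P4 pair, 141 and 120 in the P6 pair, and 81.9 and 165 in the P10 pair. From P0 through P6 each passage lay below the one before it without overlap, and P10 overlapped P6. The P0 mean, 367 ± 89.8, was 2.98 times the P10 mean of 123 ± 58.6 (SD, n = 2). Erbb2 was lower in the 3 libraries with little Dym (81.9 to 141) than in the other 7 (165 to 430), with no overlap, and the part of that shift in the falls at P6 and P10 was not tested.

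By limma Erbb2 fell by 1.47 at P6 (SE 0.34, adjusted p = 0.0192) and by 1.63 at P10 (adjusted p = 0.0140) on the log2 scale. The differences at P2 (-0.49, adjusted p = 0.515) and P4 (-0.84, adjusted p = 0.163) did not pass. On omitting P0 replicate 1 the P10 call was lost (adjusted p = 0.129), as it was with the spread of P0 and P10 alone (adjusted p = 0.134), and the P6 call on omitting any library of P0 or P6 (highest adjusted p = 0.147). The P4 difference passed without P10 replicate 1 or 2, and without both P6 replicate 2 and P10 replicate 1. It also passed with the spread of P0 and P4 alone. Late against early passages gave -0.88 (SE 0.24, adjusted p = 0.0544), which passed by DESeq2 (-0.85, adjusted p = 0.0113) and without P10 replicate 2 (-1.13, adjusted p = 0.00147). Omitting P6 replicate 2 together with P10 replicate 1 gave -0.58, which passed too (adjusted p = 0.0216).

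Egfr, the founding receptor, rose from a very low start. Its values were 3.48 and 7.19 in the P0 pair, 16.7 and 15.6 in the P2 pair, 20.8 and 25.6 in the P4 pair, 24.3 and 31.5 in the P6 pair, and 21.9 and 27.3 in the P10 pair. These rest on 4 and 5 reads at P0 and 14 to 35 reads in each later library. All 8 later libraries lay above both P0 libraries, and P4, P6 and P10 overlapped one another.

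Mean Egfr was 4.62 times as high in the P10 pair (24.6 ± 3.80) as in the P0 pair (5.34 ± 2.62; SD, n = 2). By limma Egfr rose at P4 (log2 difference 1.99, SE 0.40, adjusted p = 0.0184), P6 (2.24, adjusted p = 0.00783) and P10 (2.07, adjusted p = 0.0113), and the difference of 1.50 at P2 did not pass (adjusted p = 0.0797). All 3 calls were lost without P0 replicate 1, the library with 4 reads (adjusted p = 0.150, 0.0706 and 0.0987), and that at P4 also without either P4 library (highest adjusted p = 0.166). The P2 difference passed without P10 replicate 1 or 2, and without both P6 replicate 2 and P10 replicate 1. It also passed with the spread of P0 and P2 alone. The P10 call was lost with the spread of P0 and P10 alone (adjusted p = 0.138).

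Erbb3, the receptor of Nrg1 with little kinase activity of its own, lay far apart in the duplicates of P10. Its values were 44.4 and 66.1 in the P0 pair, 51.0 and 104 in the P2 pair, 102 and 114 in the P4 pair, 39.1 and 16.9 in the P6 pair, and 24.5 and 158 in the P10 pair. The duplicates of P10 thus held the lowest and the highest value outside P6. Both P6 libraries lay below both of P0, both P4 libraries lay above them, and P2 and P10 overlapped P0. The 3 libraries with little Dym held 16.9 to 39.1 normalised reads of Erbb3 and the other 7 held 44.4 to 158, with no overlap; the part of that shift was not tested.

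No comparison of Erbb3 with P0 passed by limma (adjusted p = 0.342 to 0.884, SE 0.78). At P4 the difference was 0.98, which passed without both P6 replicate 2 and P10 replicate 1 (adjusted p = 0.0244) and with the spread of P0 and P4 alone (adjusted p = 0.00711). Late against early passages gave -1.12 (SE 0.55, adjusted p = 0.184), which passed at -1.78 without P10 replicate 2 (adjusted p = 0.00452). At P10 the difference of 0.21 turned to -1.12 without P10 replicate 2 and to -0.07 without P0 replicate 1, and it passed at 1.53 without both P6 replicate 2 and P10 replicate 1 (adjusted p = 0.00701), so no direction can be given.

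**Figure D2:**
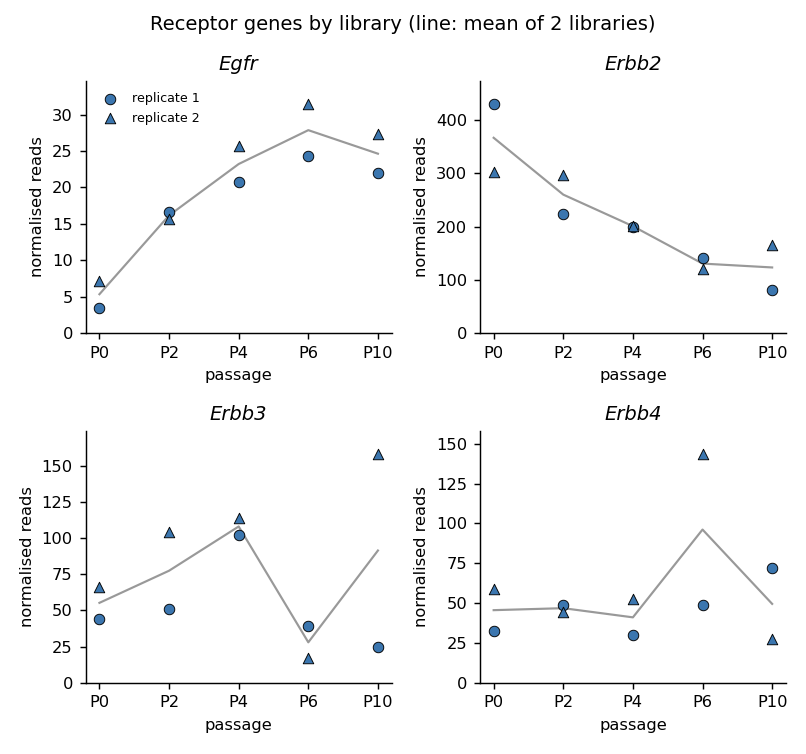
Normalised reads (vertical axes, from 0, a separate scale for each gene) of 4 receptor genes in the 10 libraries by passage (horizontal axes), with circles and triangles for replicates 1 and 2 and a line through the means of 2 libraries. Egfr starts at 3.48 and 7.19, Erbb2 starts at 430 and 303 and ends at 81.9 and 165, and the duplicates of Erbb3 at P10 lie at 24.5 and 158.

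The remaining receptor, Erbb4, is not one of the 9 genes but is the receptor that Nrg4 and Ereg share. It had 32.2 and 58.9 normalised reads in the P0 pair, 48.9 and 44.7 in the P2 pair, 29.7 and 52.4 in the P4 pair, 48.5 and 144 in the P6 pair, and 71.7 and 27.3 in the P10 pair. The P0 range overlapped every later passage, and no comparison passed (limma adjusted p = 0.289 to 0.984).

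**Figure D3:**
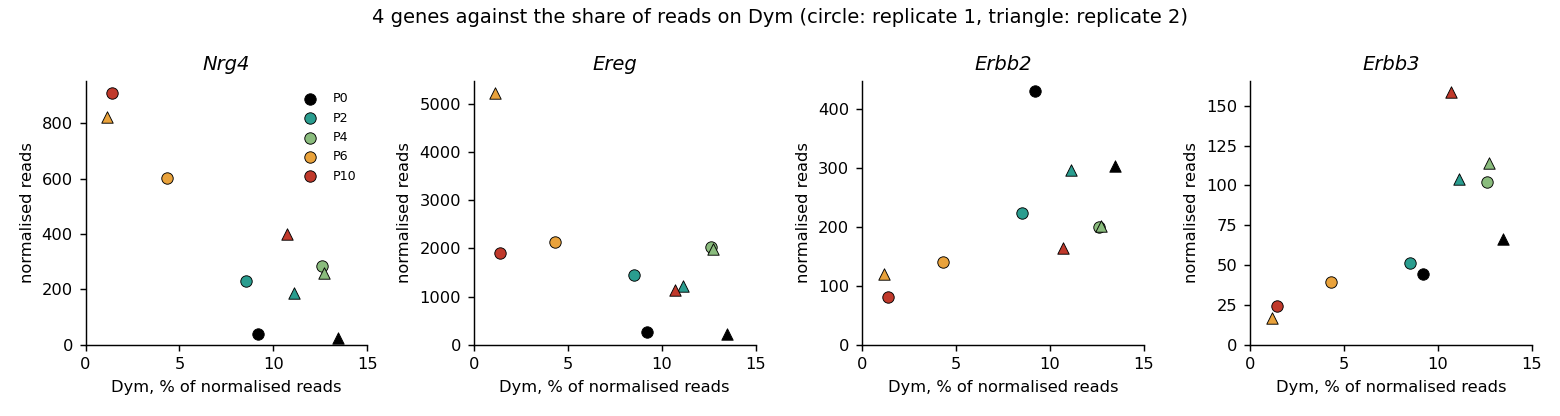
Normalised reads (vertical axes, from 0) of Nrg4, Ereg, Erbb2 and Erbb3 against the percent of normalised reads on the feature Dym (horizontal axes) in the 10 libraries, coloured by passage, with circles for replicate 1 and triangles for replicate 2. Erbb3 lies at 16.9 to 39.1 in the 3 libraries with 1.15 to 4.32% Dym and at 44.4 to 158 in the other 7.

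Set beside the whole table, the counts of the 8 tested genes were as follows. At P2, 2 passed, both higher (Nrg4 and Ereg), where 4.15% of all features tested passed, 2.08% higher and 2.07% lower. At P4, 3 passed, all higher (Nrg4, Ereg and Egfr), where 9.24% did, 3.72% higher and 5.52% lower. At P6, 3 were higher (Nrg4, Ereg and Egfr) and 1 lower (Erbb2), where 21.0% of features passed, 10.5% higher and 10.5% lower. At P10, 3 were higher (Nrg4, Ereg and Egfr) and 1 lower (Erbb2), where 17.0% passed, 8.77% higher and 8.25% lower.

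Late against early, 1 was higher (Nrg4) and 1 lower (Areg), where 8.14% of features passed, 5.0% higher and 3.14% lower. The median log2 difference over all features lay between -0.07 and 0.03 in the 5 comparisons. The 4 comparisons with P0 share the P0 libraries and are not independent of one another. The genes were chosen with earlier results of these data known, so these counts carry no test of their own.

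**Figure D4:**
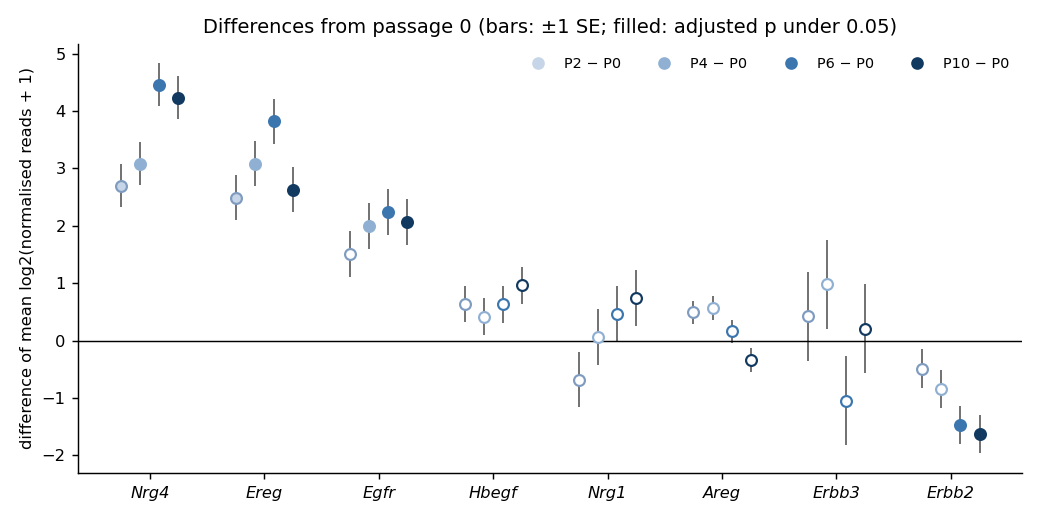
Differences of mean log2(normalised reads + 1) from P0 (vertical axis) for the 8 tested genes (horizontal axis) at P2, P4, P6 and P10, from light to dark, with bars of 1 SE either way and points filled where the limma adjusted p is under 0.05. Nrg4 and Ereg are filled at each passage, Egfr from P4, and Erbb2 only at P6 and P10, at -1.47 and -1.63.

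The profiles across the 10 libraries were compared as a description, since these libraries share their passages and their Dym split. Pearson's r of log2 values was 0.92 between Nrg4 and Ereg, -0.90 between Nrg4 and Erbb2 and 0.01 between Nrg4 and Areg. Ereg and its neighbour Areg had an r of 0.31. Among 9280 named features with a mean of at least 50, the nearest to Nrg4 were Entpd5, a nucleotidase of the endoplasmic reticulum (r = 0.99), Lrp8, a receptor of the LDL receptor family (r = 0.99), and Ppic, a cyclophilin (r = 0.99).

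Nearest to Ereg were Mast4, a kinase, the sorting nexin Snx21 and Nckap5 (r = 0.97 to 0.98). Those of Erbb2 were Tjap1, Plekhm1 and the thyroid hormone receptor Thra (r = 0.98 to 0.99), and those of Erbb3 were Znf385c, the melanosome transport gene Mlph and the myosin Myo3b (r = 0.98). Areg was nearest to Naip2, an inflammasome sensor, Lcp1, an actin bundler of blood cells, and the filament gene Synm (r = 0.90 to 0.95). Hbegf was nearest to Nup35, Tdg and Eif2b1 (r = 0.92 to 0.93).

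The rest of the family was read from a list of Egf, Epgn, Btc, Nrg2, Nrg3 and Erbb4, of which 5 matched a feature and 4 were tested. None of the 4 rose in any of the 5 comparisons, and Egf, the name-giving ligand of Egfr, fell at P10 (limma log2 difference -1.59, SE 0.41, adjusted p = 0.0311). Over all features, from 2.08% (P2) to 10.5% (P6) were called higher in these comparisons, and 8.25% were called lower at P10. With only 4 genes, the absence of a rise cannot be told from these shares. The Egf mean was 38.2 ± 5.18 before and 12.3 ± 4.12 at the end (SD, n = 2). The call was lost on omitting any P0, P2 or P4 library or without P10 replicate 2 (highest adjusted p = 0.189). Nrg2 and Nrg3, neuregulins of the nervous system, had means of 33.9 and 219 at P0 and 26.9 and 155 at P10 and did not pass.

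Of 9 tested genes that release or ripen the ligands (the ADAM proteases, Bace1 and the iRhoms with Frmd8), none rose and 2 fell at P10, Rhbdf2 and Adam12, and the median log2 difference was -0.32, against 0.00 over all features. At P2 1 rose and 1 fell, at P4 1 rose, at P6 1 rose and 2 fell, and late against early none passed. Over all features, 8.77% were called higher and 8.25% lower at P10, and 4.15% were called either way at P2, 9.24% at P4, 21.0% at P6 and 8.14% late against early. Adam17, the main protease for Areg, Ereg, Tgfa and Hbegf, averaged 1403 normalised reads in the P0 pair and 1122 in the P10 pair (log2 difference -0.32, limma adjusted p = 0.201). Adam9, another sheddase, rose at P2, P4 and P6 (at P4: log2 difference 0.99, SE 0.18, adjusted p = 0.0135). Rhbdf2, an iRhom that escorts Adam17 to the surface, fell at P2 (-0.98, SE 0.21, adjusted p = 0.0387), P6 and P10. The Adam9 calls were lost on omitting any library of P0 or P4, and those of Rhbdf2 and Adam12 on omitting any library of P0, P2 or P4, among others.

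In the list of inhibitors and receptor turnover, 2 of 22 tested genes rose at P10 and 4 fell, with a median log2 difference of -0.07. The shares over all features at P10 were 8.77% higher and 8.25% lower. At P2 1 rose, at P4 2 rose, at P6 4 rose and 1 fell, and late against early 2 rose (Errfi1 and Tsg101). In these comparisons 4.15%, 9.24%, 21.0% and 8.14% of all features were called. The late against early calls of Errfi1 and Tsg101 were lost on omitting any library of P0, P2, P4 or P6. Sh3gl1 (endophilin A2) and Sh3kbp1 (CIN85), both of which take part in receptor endocytosis, were the 2 that rose at P10. Sh3gl1 had means of 416 at P0 and 930 at P10 (log2 difference 1.13, SE 0.23, limma adjusted p = 0.0142) and rose in all 4 comparisons with P0, but each of these calls was lost without P0 replicate 1 and without P0 replicate 2. The P10 call of Sh3kbp1 was lost on omitting any library of P0, P2 or P4. Lrig3, of the Lrig family, rose at P6 (log2 difference 1.31, SE 0.20, adjusted p = 0.00428) whichever library was omitted. Of the same family, Lrig2 fell at P10 (-0.80, limma adjusted p = 0.0291), and Lrig1 passed in no comparison. The Lrig2 call was lost on omitting any P0, P2 or P4 library. Cbl, the ubiquitin ligase that marks Egfr for degradation, fell at P10 (-0.96, adjusted p = 0.0392), a call lost on omitting any P0, P2 or P4 library or without P10 replicate 2.

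Below the receptors, 5 of 35 tested adaptors and kinases fell at P10 and none rose (median log2 difference -0.19). Among all features 8.25% were called lower and 8.77% higher there. At P2 1 fell, at P4 4 fell, at P6 2 rose and 7 fell, and late against early 1 fell, beside 4.15%, 9.24%, 21.0% and 8.14% of all features called. Pik3cb, a catalytic subunit of PI3K, fell in all 4 comparisons with P0, at P10 from 483 ± 58.8 to 266 ± 23.9 (SD, n = 2; log2 difference -0.86, SE 0.19, limma adjusted p = 0.0171). Stat3 fell at P6 (-0.73, limma adjusted p = 0.0151), at P10 (-0.82, SE 0.16, adjusted p = 0.0106) and also from early to late passages (-0.58, adjusted p = 0.0255). Each of these calls was lost without P0 replicate 1. Those of Pik3cb at P6 and P10 were also lost without P0 replicate 2, that at P4 without P4 replicate 1 or 2, and that at P2 on omitting any P0, P2 or P4 library. The P6 call of Stat3 was also lost without P0 replicate 2 or P6 replicate 2. Its late against early call passed in 3 of 10 fits and was lost on omitting any P0, P2 or P4 library, or P6 replicate 2.

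The 13 tested genes that ERK signalling is known to induce went both ways against P0, with 2 higher and 4 lower at P10 (median log2 difference -0.55), where 8.77% of all features were called higher and 8.25% lower. At P2 3 rose and 1 fell, at P4 2 rose and 3 fell, and at P6 3 rose and 4 fell, beside 4.15%, 9.24% and 21.0% of all features called. Late against early none rose and 4 fell (Fos, Dusp6, Spry2 and Ier3), where 8.14% of all features were called, 5.0% higher and 3.14% lower. All 4 calls were lost on omitting any P2 or P4 library. Those of Fos, Dusp6 and Ier3 were also lost on omitting any P0 library or P6 replicate 2. Ccnd1, which encodes cyclin D1, rose in all 4 comparisons with P0, at P4 from 391 ± 73.7 to 1708 ± 122 (SD, n = 2; log2 difference 2.13, SE 0.27, limma adjusted p = 0.00321). Its calls at P4 and P6 held whichever library was omitted. That at P2 was lost without P0 replicate 2, P2 replicate 1 or P2 replicate 2, and that at P10 without P0 replicate 1 or 2. Spry4, a feedback inhibitor, rose at P10 from 4.64 ± 4.53 to 26.4 ± 0.883 (SD, n = 2; log2 difference 2.56, SE 0.58, adjusted p = 0.0200), a call lost without P0 replicate 2. Fos and Egr1, the immediate early genes, fell at P10, with log2 differences of -5.12 (SE 0.39, adjusted p = 0.000232) and -2.57 (SE 0.48, adjusted p = 0.0102), and Egr1 did not pass without P0 replicate 1 (adjusted p = 0.105). Spry2, another feedback inhibitor, rose at P2, P4 and P6 whichever library was omitted, and at P10 had a log2 difference of 0.61 (adjusted p = 0.0508). Spred1 and Dusp4, feedback inhibitors as well, fell at P10 (log2 differences -1.01 and -0.88, limma adjusted p = 0.0137 and 0.0205). The Spred1 call was lost without P0 replicate 1, and that of Dusp4 on omitting any P0, P2 or P4 library.

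**Figure D5:**
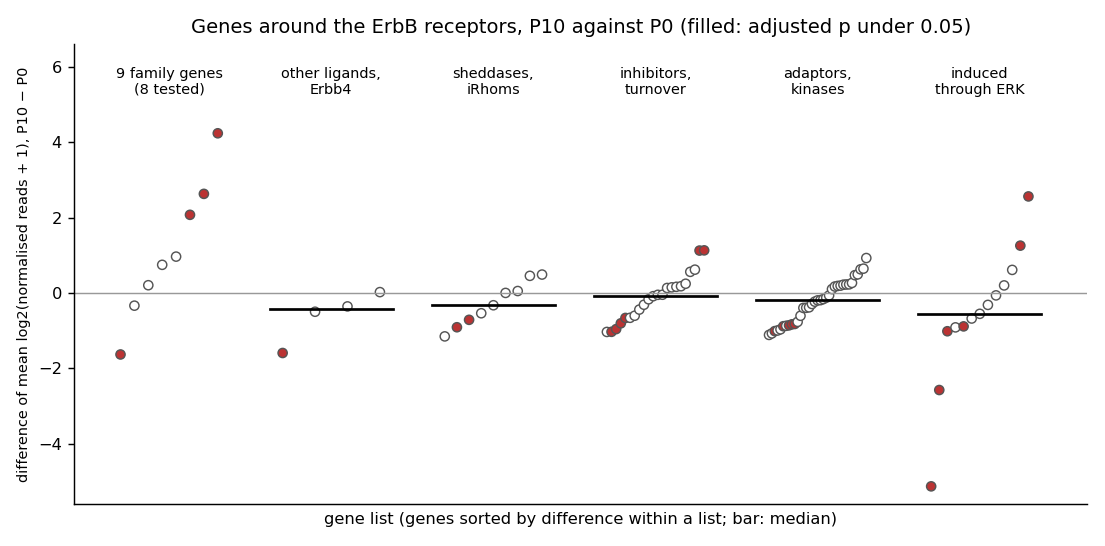
Differences of mean log2(normalised reads + 1) between P10 and P0 (vertical axis) for the tested genes of 6 gene groups (horizontal axis), sorted within each group. Filled points have a limma adjusted p under 0.05, and bars mark the medians of the 5 pathway lists, from -0.55 for genes induced through ERK to -0.07 for inhibitors and turnover.

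Cell type markers were read beside these genes. Of 7 matched epithelial markers, 3 had a mean of at least 10 (Cdh1, Ocln and Tjp1), and the keratins Krt18 and Krt19 had a mean under 1. Of 7 matched mesenchymal markers, 6 had a mean of at least 10. Vim averaged 13369.7 normalised reads in the P0 pair, but Col1a1 5.34 and Cdh2 10.3, and Col1a2 had a mean under 1. Col1a1 rose at P2 and P4, and Fn1 fell at P6 and P10 (log2 differences -1.29 and -2.28, limma adjusted p = 0.00506 and 0.000541). Of 8 markers of ovarian granulosa and theca cells, 5 matched and 4 had a mean of at least 10, and Star was the 1 that rose at P10. Of 6 leukocyte markers, 4 were tested. Itgax rose in all 4 comparisons with P0 (log2 differences 4.59, 5.60, 3.76 and 4.04). Its P0 mean was 0.719 normalised reads, so these differences depend on the 1 added before the logarithm. Cd68 rose at P4 and P6 (1.34 and 1.53, limma adjusted p = 0.0296 and 0.0121), Ptprc and Laptm5 did not pass, and Cd14 had 1 read in all. The summed level of the 6 leukocyte markers was 52.3 to 58.9 normalised reads in the P0 pair, 102 to 108 in the P2 pair, 179 to 209 in the P4 pair, 146 to 213 in the P6 pair and 107 to 159 in the P10 pair. Over all features, 2.08%, 3.72%, 10.5% and 8.77% were called higher at P2, P4, P6 and P10. At P6 and P10, 10.5% and 8.25% were called lower. Fits with libraries left out are not given for the cell type markers. Whether any cells of these types were present, and their part in the levels of Ereg and Nrg4, was not tested.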

How the data were processed

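RNA from CHO-K1 cells was sequenced in 10 libraries, 2 at each of 5 passages. Per the labels' protocols, Trizol RNA was depleted of rRNA and made into stranded libraries. The deposited values, 1 signal for each feature in a library, were normalised by the authors with DESeq, per the submitters' processing notes. The sources used here do not give the aligner, the read counter, its strand setting, the build or the annotation. In each column 100.0% of the values were whole multiples, within 0.01, of the value that 1 read is worth, and dividing by it gave whole reads. The step of P4 replicate 1 lies near 1, so its reads are less certain. Of 20050 features named by a gene number, 16386 matched a RefSeq symbol (CriGri-PICRH-1.0), which was used for names and neighbours only.

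Tests used limma 3.58.1 (R 4.3.3) on log2(value + 1) with a trended prior, 1 fit of all 10 libraries with a mean per passage and 5 residual degrees of freedom, two-sided, with Benjamini-Hochberg adjustment within each of 5 comparisons at 0.05. Alternatives were pseudocounts, filters, TMM scaling, edgeR 4.0.16 and DESeq2 1.42.0 on recovered reads, a replicate block, the spread of the compared passages alone, and leaving out libraries. All 9 genes are named, the other genes come from lists, and the 3 most similar profiles are given for genes with a mean of at least 50. From the pathway lists, genes were named by their place in the pathway among those that passed, and their alternatives were added after the data were seen. The members, lists and tests were chosen with earlier results of these data known. The steps were run on simulated data that gave a gene the same spread in all libraries. That simulation did not hold the wider spread of P6 and P10.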

Additional observations from a re-analysis of the deposited data

How the results depend on the processing

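Over 20 alternatives, 717 of 790 values of the 8 tested genes kept their direction and their side of the threshold, 39 no longer passed, 27 newly passed and 7 turned sign, none of them a called value. Those 7 were log2 differences of Nrg1 at P4 (-0.41 without P0 replicate 1 and -0.31 without P4 replicate 2; -0.41 to 0.54 over the omitted libraries) and at P6 (-0.0027 without P0 replicate 1, up to 0.95 without another), Erbb3 at P2 (-0.086 without P2 replicate 2, up to 0.93) and at P10 (-0.07 without P0 replicate 1 and -1.12 without P10 replicate 2, up to 1.53), and Ereg late against early (-0.067 without both P6 replicate 2 and P10 replicate 1, up to 0.76 without P6 replicate 1). The cause was not tested. Pseudocounts of 0.5 and 5, TMM scaling and edgeR moved no count of calls by over 1.5 times.

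The number of genes of the 9 called was 2 at P2, 3 at P4, 4 at P6, 4 at P10 and 2 late against early. Leaving out 1 library gave 0 to 4, 2 to 5, 2 to 4, 2 to 5 and 0 to 5. Without both P6 replicate 2 and P10 replicate 1 it was 4 at P2, 6 at P4 and 7 at P10, and with the spread of the compared passages alone 4, 6 and 1, and 0 late against early. Late against early it was 1 with no filter.

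Over all features, 561, 1250, 2841 and 2301 passed at P2, P4, P6 and P10 and 1100 late against early. Leaving out 1 library gave 61 to 1578, 143 to 2783, 412 to 5441, 315 to 4738 and 16 to 6391. Leaving out P6 replicate 2 and P10 replicate 1 gave 4616, 5829, 6595, 6256 and 3618. The spread of the compared passages alone gave 3940 at P2, 5677 at P4, 49 at P10 and 99 late against early. DESeq2 gave 1052 at P2 and 2536 late against early, and no filter gave 624 late against early.

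The labels give each passage the replicate numbers 1 and 2 without saying what they share. Deviations from the passage means correlated across genes at -0.67 to 0.23 between same-numbered libraries, so the numbers were not taken as pairs. With the replicate number as a block, 261 features passed at P2, 767 at P4 and 343 late against early, where 1 of the 9 genes passed and Areg did not (adjusted p = 0.0649). Depth limits Egfr, Nrg1 and Tgfa, which have few reads.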
